A study of Mus musculus with 13 samples.

Results

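Transcripts of 7 genes of the type 1 T cell program were followed in T cells sorted from mouse melanomas. The genes were the cytokines Ifng, Tnf, Il2 and Csf2 and the transcription factors Tbx21, Eomes and Stat4, chosen by their symbols from the 12963 genes of the deposited table, and every one of the 7 was present there and passed the filter on low values. The tumors were formed by B16-F10 cells, a mouse melanoma line, injected subcutaneously into Foxp3-EGFP-DTR animals. Their regulatory T (Treg) cells are green and express a receptor for diphtheria toxin (DTx) from the Foxp3 locus, and the toxin therefore ablates them. All 13 libraries came from tumors of mice of this genotype, harvested at the same time after implantation, and they fell into 5 groups by cell type and treatment. After PBS there were 3 libraries of Treg cells (Treg PBS), 2 of CD4+ conventional T (Tconv) cells (CD4 PBS) and 2 of CD8+ T cells (CD8 PBS). After DTx there were 3 of CD4+ Tconv cells (CD4 DTx) and 3 of CD8+ T cells (CD8 DTx). No group held cells of a mouse without the Foxp3-EGFP-DTR allele, so that the effect of the toxin itself and that of losing Treg cells cannot be told apart.

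In the type 1 program, T cells make interferon-gamma (Ifng), which activates macrophages and raises antigen presentation, together with tumor necrosis factor (Tnf), the growth factor interleukin-2 (Il2) and granulocyte-macrophage colony-stimulating factor (Csf2, GM-CSF). Interleukin-12 acts through STAT4 (Stat4), and antigen receptor and interferon-gamma signals induce the T-box factor T-bet (Tbx21), which directs the fate of T helper 1 cells. Eomesodermin (Eomes), a related T-box factor, is best known from CD8+ T cells and natural killer (NK) cells, where it acts beside T-bet.

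Values are normalized reads, that is, read counts divided by a size factor of the library, and the libraries held between 15947556 and 34140486 reads. The levels of the 7 genes are not scaled to transcript length, so they are compared between samples and not between genes. The sorted populations carried their defining transcripts. Foxp3 lay between 1178 and 1896 in Treg PBS and at 12.1 or less in the other libraries, Cd4 at 413 or less in the CD8 libraries, and Cd8a between 103 and 1302 in CD4 DTx against 23475 to 48330 in the CD8 libraries. Summed NK cell markers (6 genes) ranged from 508 to 5608 in CD8 PBS and from 716 to 10152 in CD8 DTx but from 124 to 678 in the CD4+ groups. Summed melanocyte markers lay between 60.7 and 170 in the DTx libraries and between 171 and 1197 in the PBS libraries. Erythroid markers reached at most 1175 in the DTx libraries against 948 to 6570 in the PBS libraries. In the 3 PBS groups, replicate 3 had the highest sum of 14 immediate early genes, between 165116 and 225750 against 27877 to 60797 in the other PBS libraries and 20723 to 39761 in the DTx libraries. By Xist and Y-linked transcripts replicate 3 of every group was male and all other libraries were female. The part of these transcripts in the results below was not tested beyond the values given. The study describes the replicates of a group as biological and collected on separate days, and does not say whether the same number marks the same day in different groups.

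After DTx, Ifng, Tbx21 and Csf2 were higher in CD4+ Tconv cells, and Ifng and Tbx21 were higher in CD8+ T cells. A gene was called where the adjusted p (limma, Benjamini-Hochberg over 12667 genes) was under 0.05 and the change was more than 4-fold. By this rule 3 of the 7 genes rose and 0 fell in CD4 DTx against CD4 PBS, where 5.06% of all genes tested rose and 1.79% fell. In CD8 DTx against CD8 PBS, 2 of 7 rose and 0 fell, beside 3.87% and 1.59% of all genes. Every DTx library lay above every PBS library for 5 of the 7 in CD4+ cells, as for 23.4% of all genes. In CD8+ cells this held for 4 of the 7 and 22.8% of all genes. None of the 7 was called lower in any of the comparisons. Leaving out replicate 3 of every group left 8 libraries and 1 in each PBS group of Tconv cells. The calls among the 7 were lost there, and an effect of replicate 3 cannot be told apart from that of fewer libraries. In that fit the log2 fold changes were 2.59 in CD4+ and 1.97 in CD8+ cells for Tbx21, 2.38 and 2.72 for Ifng and 3.20 in CD4+ cells for Csf2. The median log2 fold change of the 7 in the fit of all libraries was 1.54 in CD4+ and 1.08 in CD8+ cells, where the medians of all genes were -0.04 and -0.03.

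The remaining comparisons placed the same genes between cell types. Treg PBS against CD4 PBS had 0 of 7 called, with 7.85% of all genes higher and 2.35% lower. Between CD8 PBS and CD4 PBS 0 of 7 were called, with 0.742% of all genes higher and 0.166% lower, and between CD8 DTx and CD4 DTx also 0 of 7, with 0.576% and 0.426%. Tbx21 and Ifng each had an unadjusted p under 0.05 in the latter, as did Eomes. Against Treg PBS, CD4 DTx had 2 of 7 called higher, Il2 and Csf2 (all genes 1.56% higher, 2.45% lower). CD8 DTx had 3 of 7, Ifng, Tbx21 and Eomes (2.14% higher, 2.79% lower), and CD8 PBS had 1 of 7, Eomes (2.85% higher, 6.56% lower). In the test of whether the DTx effect differed between CD4+ and CD8+ cells 0 of 7 were called, where 0.0474% of all genes were called in either direction. At an unadjusted p under 0.05, limma had 2 of the 7 in Treg PBS against CD4 PBS, beside 4401 of 12667 genes. It had 3 in CD8 PBS against CD4 PBS (827 of all genes) and 3 in CD8 DTx against CD4 DTx (1443). In the test of the DTx effects it had 1 (513 of all genes). By the stricter rule for calls, edgeR and DESeq2 had 0 of the 7 in these 4 comparisons. Comparisons that use the same group are not independent of each other. All libraries of Treg PBS lay above those of CD4 PBS for 2 of the 7 and 29.2% of all genes. For CD8 PBS above CD4 PBS these were 5 and 21.7%, and for CD8 DTx above CD4 DTx 3 and 7.88%. Above Treg PBS they were 6 and 10.2% for CD4 DTx, 6 and 8.71% for CD8 DTx and 2 and 28.2% for CD8 PBS.

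The promoters of the 3 genes that were called higher in CD4+ cells after DTx are shown. The 250 bases before the start site were taken from RefSeq on GRCm38.p6, 5′ to 3′ on the strand of the gene. They were searched on both strands for the NFAT core GGAAA, the AP-1 site TGANTCA, the STAT site TTCNNNGAA and the T-box half-site GGTGTGA. Capitals mark every match.
Ifng, chr10:118440796-118441045, plus strand: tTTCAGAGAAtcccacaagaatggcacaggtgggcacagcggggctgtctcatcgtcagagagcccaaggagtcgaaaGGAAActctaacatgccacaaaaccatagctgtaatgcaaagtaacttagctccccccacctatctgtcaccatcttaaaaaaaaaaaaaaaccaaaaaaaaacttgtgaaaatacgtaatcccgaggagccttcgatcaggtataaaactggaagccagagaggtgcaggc
Tbx21, chr11:97115332-97115581, minus strand: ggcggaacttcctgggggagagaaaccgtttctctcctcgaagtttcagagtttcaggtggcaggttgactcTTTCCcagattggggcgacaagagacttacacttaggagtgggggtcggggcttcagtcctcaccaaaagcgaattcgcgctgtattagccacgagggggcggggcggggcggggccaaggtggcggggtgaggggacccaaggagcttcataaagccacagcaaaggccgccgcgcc
Csf2, chr11:54249900-54250149, minus strand: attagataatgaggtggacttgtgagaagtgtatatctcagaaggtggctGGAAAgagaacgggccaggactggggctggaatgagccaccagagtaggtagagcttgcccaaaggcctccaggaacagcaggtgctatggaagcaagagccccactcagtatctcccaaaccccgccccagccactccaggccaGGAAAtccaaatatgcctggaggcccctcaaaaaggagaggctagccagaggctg

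The Ifng promoter held 1 NFAT core at -172 from the start site and 1 STAT match, TTCAGAGAA, beginning at -249. The Tbx21 promoter held the NFAT core once, on the opposite strand at -178, and the Csf2 promoter held it at -200 and -55. Of the 7 genes, 6 had an NFAT core in this window and Eomes did not, while 55.6% of all 32851 promoters had one. The STAT site occurred in 7.02% of all promoters, the AP-1 site in 6.75% and the T-box half-site in 3.33%, and none of the 7 genes held a match to the last 2. The matches overlapped nowhere in the windows shown.

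Ifng, the defining cytokine of the program, had 297 and 479 normalized reads in the CD4 PBS libraries and 2212, 1085 and 1638 in the CD4 DTx libraries. Every CD4 DTx library lay above both CD4 PBS libraries. The log2 fold change was 2.06 (SE 0.56, adjusted p = 0.0307 by limma), a 4.18-fold rise just past the threshold. In CD8+ cells the levels were 758 and 681 in PBS and 9423, 2672 and 3401 in DTx, a log2 fold change of 2.62 (SE 0.56, adjusted p = 0.0116 by limma) or 6.13-fold. CD8 DTx replicate 1 stood well above the other CD8 DTx libraries, although replicates 2 and 3 also exceeded both PBS libraries. The rise in CD4+ cells was called again in 1 of the 5 fits that left out a library of its groups. Without CD4 PBS replicate 2 or 3 the log2 fold change was 1.72 (adjusted p = 0.215) or 2.41 (0.0881), and without CD4 DTx replicate 1 or 3 it was 1.82 (0.0831) or 2.04 (0.0646), all by limma. Adding a replicate block to the fit gave a log2 fold change in CD4+ cells of 1.79 (adjusted p = 0.0148 by limma), below 4-fold and so not called. The call in CD8+ cells was lost without CD8 PBS replicate 2 (2.69, adjusted p = 0.0550 by limma) or 3 (2.54, adjusted p = 0.124).

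Treg cells also held Ifng transcripts, at 568, 291 and 977 normalized reads, which overlapped the CD4 PBS libraries and the CD8 PBS libraries. From the highest mean to the lowest the order was CD8 DTx, CD4 DTx, CD8 PBS, Treg PBS and CD4 PBS. Neighbours in the lower part of this order, CD8 PBS and Treg PBS, and Treg PBS and CD4 PBS, overlapped. CD8 DTx lay above Treg PBS in every library, with a log2 fold change of 3.01 (SE 0.50, adjusted p = 0.00253 by limma). CD8 DTx exceeded CD4 DTx by 1.48 on the log2 scale (SE 0.50, 95% interval 0.39 to 2.57), which did not pass after adjustment (limma, adjusted p = 0.218). The DTx effects in CD4+ and CD8+ cells differed by -0.55 (SE 0.79, adjusted p = 1 by limma), with a 95% interval from -2.28 to 1.17.

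RNA of other cells was measured beside these levels. If the Cd8a reads of the CD4 DTx libraries came from CD8 DTx cells with the mean profile of that group, they would account for 13.2 of 2212, 91.2 of 1085 and 167 of 1638 Ifng reads in replicates 1, 2 and 3, and by Cd8b1 for 22.6, 139 and 199. Cd8a in those libraries reached 0.256%, 1.77% and 3.24% of the CD8 DTx mean. In CD8+ cells, replicate 1 of CD8 DTx had the most Ifng and the lowest NK marker sum of its group (716, against 10152 and 3750). Without the CD8 PBS and CD8 DTx libraries highest in NK markers the log2 fold change of Ifng was 3.05, with an adjusted p of 0.0524 by limma.

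**Figure D1:**
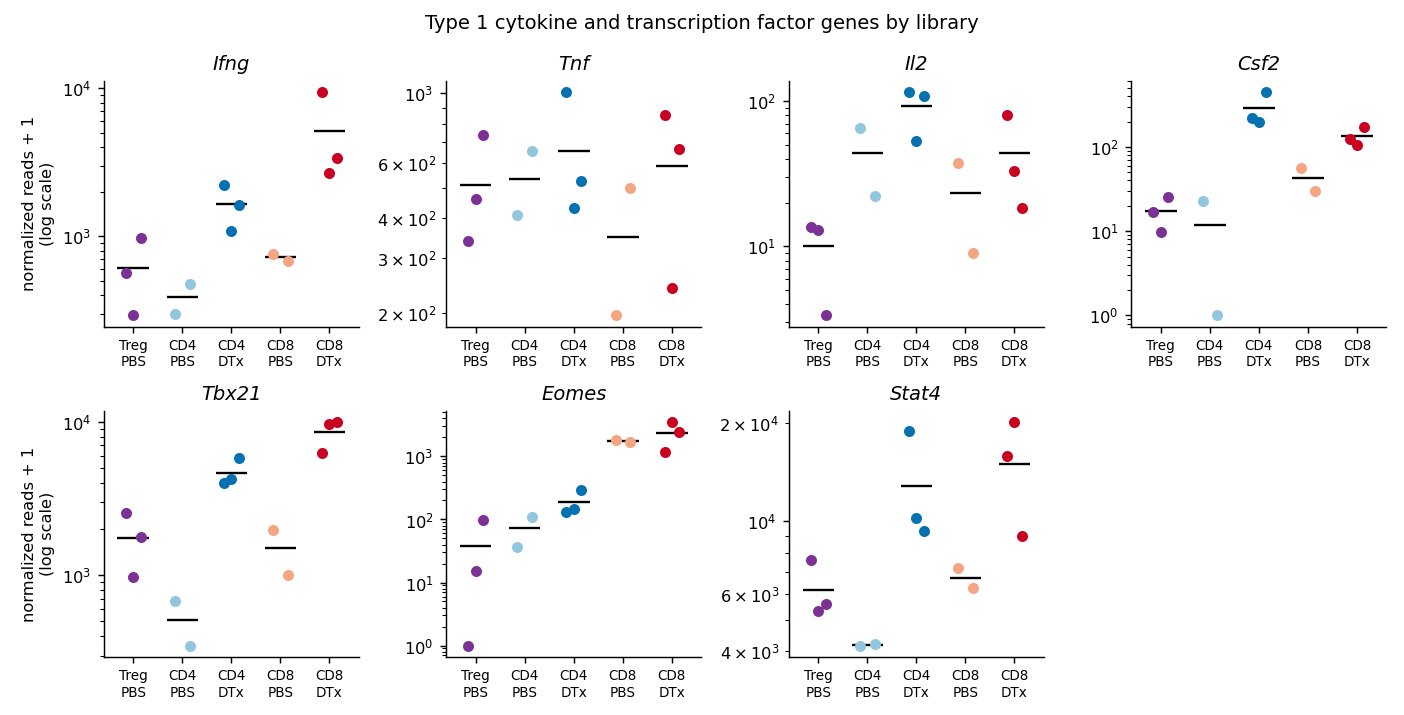
Normalized reads plus 1 on a log axis for the 7 genes in each of the 13 libraries, by group, where a dot is a library and a bar is the group mean. Ifng and Tbx21 lie higher in the DTx groups than in the PBS groups of the same cell type, Csf2 is highest in CD4 DTx (mean 289), and Eomes is high in both CD8+ groups (means 1741 and 2364).

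Tnf, a cytokine made by many activated cells, did not follow Ifng. It had 410 and 653 normalized reads in CD4 PBS and 1006, 430 and 525 in CD4 DTx, and the groups overlapped. In CD8+ cells the values were 196 and 500 in PBS and 851, 239 and 662 in DTx, and in Treg PBS 337, 458 and 737. The log2 fold change after DTx was 0.24 (SE 0.60, 95% interval -1.06 to 1.54) in CD4+ and 0.71 (SE 0.60, -0.59 to 2.01) in CD8+ cells. The order of the means was CD4 DTx, CD8 DTx, CD4 PBS, Treg PBS and CD8 PBS, and each neighbouring pair overlapped. In each of the 3 PBS groups the highest Tnf value was in replicate 3, the library with the most immediate early transcripts, and their part in the Tnf level was not tested.

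Il2, the growth factor that activated CD4+ cells make and Treg cells are known to lack, was low in all libraries. The Treg PBS libraries had 12.7, 11.9 and 2.35 normalized reads, the last from 2 reads. CD4 PBS had 64.2 and 21.1 and CD4 DTx 114, 52.1 and 107, while CD8 PBS had 36.4 and 8.0 and CD8 DTx 79.4, 31.8 and 17.5. Every CD4 DTx library exceeded every Treg PBS library, and the log2 fold change between them was 3.37 (SE 0.88, adjusted p = 0.0365 by limma). This call was made in 0 of the 6 fits without 1 of these libraries, in which the log2 fold change ran from 2.71 to 3.73 and the adjusted p from 0.0555 to 0.110 (limma). Within CD4+ cells the DTx effect was 1.2 (SE 0.99, 95% interval -0.95 to 3.34, limma adjusted p = 0.470), and within CD8+ cells 0.99 (SE 0.99, -1.15 to 3.14). The order of the means was CD4 DTx, CD8 DTx, CD4 PBS, CD8 PBS and Treg PBS, and neighbours overlapped throughout.

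Csf2, which encodes a growth factor of myeloid cells, rose in CD4+ cells from near nothing. CD4 PBS had 21.9 and 0 normalized reads, from 16 and 0 reads, and CD4 DTx had 223, 197 and 446. The log2 fold change was 5.82 (SE 1.06, adjusted p = 0.00344 by limma), and its size rested on the library at 0, since without CD4 PBS replicate 3 it was 3.57 (adjusted p = 0.0298). With a pseudocount of 10 in place of 1 it was 3.97 and with 0.25 it was 6.84, and the gene was called in each of these fits. CD8 PBS had 54.7 and 29.3 and CD8 DTx 123, 104 and 174, so that the groups did not overlap, but the log2 fold change of 1.68 (SE 1.06, adjusted p = 0.335 by limma) was not called. Treg PBS had 16.1, 8.67 and 24.7, below every CD4 DTx library, with a log2 fold change of 4.06 for CD4 DTx against Treg PBS (SE 0.95, adjusted p = 0.0221 by limma). That call was kept in 3 of 6 fits without 1 library and lost without Treg PBS replicate 1 or 2 or CD4 DTx replicate 3. CD4 DTx was the highest group for Csf2, and CD8 DTx, next in order, did not overlap with it. CD8 PBS followed, then Treg PBS and CD4 PBS, and of these neighbours the last pair overlapped.

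The DTx effect on Csf2 was larger in CD4+ than in CD8+ cells by 4.15 on the log2 scale (SE 1.51, 95% interval 0.87 to 7.42), with an unadjusted p of 0.0173 and an adjusted p of 0.952 in the limma fit. With a pseudocount of 10 this difference was 2.49. In proportion to Cd8a, RNA of CD8 DTx cells would give at most 4.32 of the 446 Csf2 reads in CD4 DTx replicate 3, and by Cd8b1 5.15. The summed myeloid markers (9 genes) were 177 to 2302 in CD4 DTx and 1386 to 1585 in CD4 PBS.

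**Figure D2:**
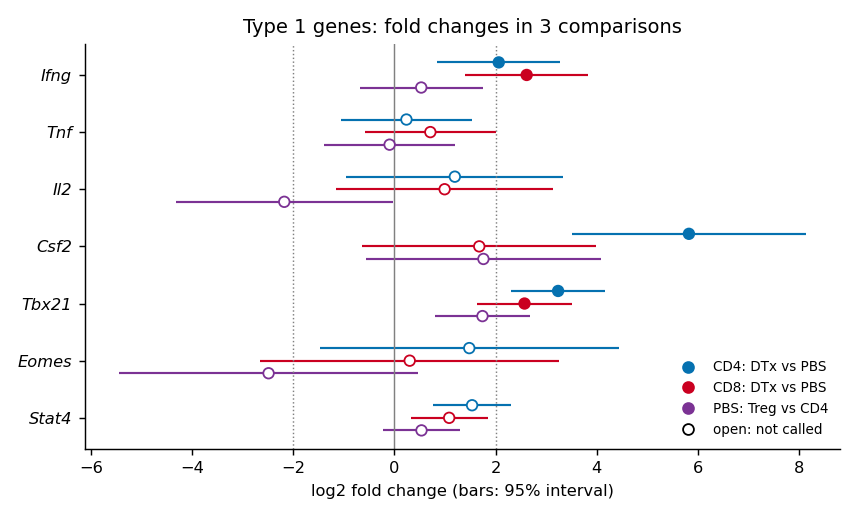
Log2 fold changes of the 7 genes with 95% intervals for DTx against PBS in CD4+ cells and in CD8+ cells, and for Treg PBS against CD4 PBS; filled symbols were called and dotted lines mark 4-fold. Tbx21 was called after DTx in both cell types (3.24 and 2.57), Csf2 was called in CD4+ cells (5.82) and not in CD8+ cells (1.68), and the intervals of Tnf span 0 throughout.

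Tbx21, the gene of T-bet, had the smallest adjusted p of the 7 in both DTx comparisons. CD4 PBS had 681 and 347 normalized reads and CD4 DTx had 3983, 4220 and 5764, a log2 fold change of 3.24 (SE 0.43, adjusted p = 5.00e-04 by limma) or 9.43-fold. CD8 PBS had 1979 and 1008 and CD8 DTx had 6250, 9606 and 9897, a log2 fold change of 2.57 (SE 0.43, adjusted p = 0.00329 by limma) or 5.95-fold. Every DTx library exceeded every PBS library of its cell type by a wide margin. The call in CD4+ cells was made in all 5 fits without 1 library, with log2 fold changes from 2.75 to 3.72. In CD8+ cells it was made in 4 of 5, and without CD8 PBS replicate 3 the value was 2.09 (adjusted p = 0.0734 by limma).

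Treg cells held an intermediate level of Tbx21, with 2531, 966 and 1765 normalized reads. All 3 exceeded both CD4 PBS libraries, and the log2 fold change of Treg PBS against CD4 PBS was 1.74 (SE 0.43, adjusted p = 0.0133 by limma), which passed the p threshold but not 4-fold. Without Treg PBS replicate 2 or CD4 PBS replicate 2 it also passed 4-fold. CD4 DTx exceeded Treg PBS by 1.5 (SE 0.38, adjusted p = 0.0331 by limma), again short of 4-fold, and CD8 DTx by 2.37 (SE 0.38, adjusted p = 0.00213), which was called. CD8 PBS lay 1.54 above CD4 PBS (SE 0.47, 95% interval 0.52 to 2.56, adjusted p = 0.256 by limma) without overlap, and it overlapped Treg PBS. In the order of means CD8 DTx came first, followed by CD4 DTx, Treg PBS, CD8 PBS and CD4 PBS. The DTx effects in the 2 Tconv types differed by 0.66 (SE 0.61, 95% interval -0.65 to 1.98, limma adjusted p = 1).

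Eomes was high in both CD8+ groups and was not called after DTx in either cell type. The CD8 PBS libraries had 1804 and 1678 normalized reads and the CD8 DTx libraries 1154, 3462 and 2475, so the groups overlapped, and the log2 fold change was 0.30 (SE 1.36, 95% interval -2.65 to 3.26, limma adjusted p = 0.905). Treg PBS had 0, 14.1 and 96.5. Against Treg PBS the log2 fold change was 7.26 in CD8 PBS (SE 1.36, adjusted p = 0.00328 by limma) and 7.56 in CD8 DTx (SE 1.22, adjusted p = 0.00206). With a pseudocount of 10 these were 5.89 and 6.19, and both were called. The size of these folds depends on the Treg library without an Eomes read: without Treg PBS replicate 1 they were 5.50 and 5.81.

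In CD4+ Tconv cells Eomes was low, at 35.5 and 110 normalized reads in PBS and 131, 145 and 291 in DTx. The DTx libraries lay above the PBS libraries, but the log2 fold change was 1.48 (SE 1.36, adjusted p = 0.519 by limma) with a 95% interval from -1.48 to 4.44. CD8 PBS exceeded CD4 PBS by 4.77 (SE 1.49, adjusted p = 0.272 by limma) and CD8 DTx exceeded CD4 DTx by 3.59 (SE 1.22, adjusted p = 0.218). The libraries of these pairs did not overlap, which held in this direction for 21.7% and 7.88% of all genes. Both were called with a pseudocount of 10 (4.56, adjusted p = 0.0256; 3.53, adjusted p = 0.0248), and both were called in fits of the compared groups alone. The wide standard error of Eomes came with its Treg PBS values, which ran from 0 to 96.5, since the fit shares the spread of a gene over all groups.

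Other cell types were measured by their own markers. In proportion to Cd8a, RNA of CD8 DTx cells would give 6.04 of 131, 41.7 of 145 and 76.5 of 291 Eomes reads in CD4 DTx replicates 1, 2 and 3. By Cd8b1 these were 10.3, 63.4 and 91.2. NK cells express Eomes, and among the CD8 DTx libraries Eomes and the NK marker sum had the same order (1154 with 716, 2475 with 3750 and 3462 with 10152). In CD8 PBS the NK marker sums of 5608 and 508 went with Eomes levels of 1804 and 1678. The part of NK cells in the Eomes levels was not tested beyond these values. The log2 ratio of Tbx21 to Eomes, read only between libraries, was -0.30 ± 0.61 (SD, n = 2) in CD8 PBS and 1.97 ± 0.48 (SD, n = 3) in CD8 DTx, without overlap. It was 2.93 ± 1.82 (n = 2) in CD4 PBS and 4.69 ± 0.34 (n = 3) in CD4 DTx, also without overlap. The highest CD4 PBS value was 4.22 and the lowest CD4 DTx value 4.30. In Treg PBS it was 7.16 ± 3.70 (n = 3), with 11.3 in the library without an Eomes read.

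**Figure D3:**
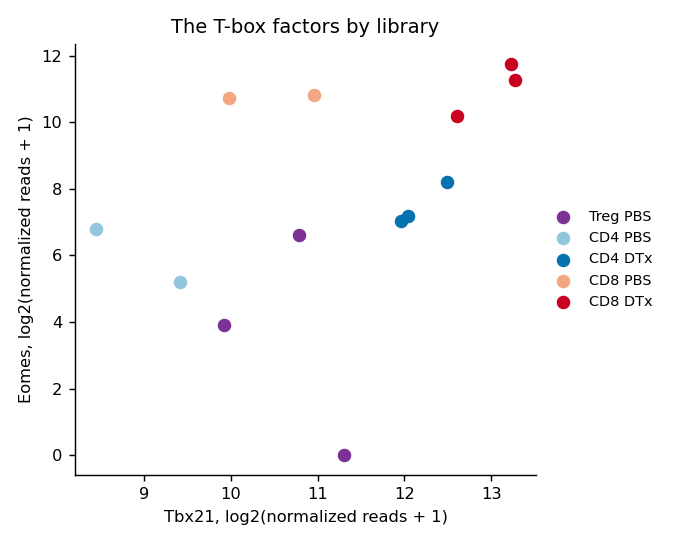
Tbx21 on the horizontal and Eomes on the vertical axis, both as log2(normalized reads + 1), with a dot for each of the 13 libraries colored by group. The CD8+ libraries occupy the top, and the DTx libraries of both cell types lie to the right of their PBS counterparts; a Treg PBS library with 0 Eomes reads sits on the floor.

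For Stat4, the transducer of interleukin-12 signals, CD4 PBS had 4163 and 4222 normalized reads and CD4 DTx 18876, 10232 and 9304. The log2 fold change of 1.54 (SE 0.35, adjusted p = 0.0124 by limma) passed the p threshold but not 4-fold. CD8 PBS had 7205 and 6245 and CD8 DTx 15828, 20078 and 9034, a log2 fold change of 1.08 (SE 0.35, 95% interval 0.32 to 1.85, limma adjusted p = 0.0687). In both cell types all DTx libraries were above both PBS libraries. This held for 23.4% of all genes in CD4+ and 22.8% in CD8+ cells. Treg PBS had 7627, 5294 and 5562, and CD8 DTx exceeded it by 1.23 (SE 0.31, adjusted p = 0.0302 by limma), short of 4-fold. The order of the means was CD8 DTx, CD4 DTx, CD8 PBS, Treg PBS and CD4 PBS, the same as for Ifng, and the libraries of CD8 DTx and CD4 DTx overlapped, as did those of CD8 PBS and Treg PBS.

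Across the 13 libraries, which include the group differences above, the log2 levels of Tbx21 correlated with those of Csf2 (Pearson r = 0.86), Stat4 (0.84) and Ifng (0.83). Tnf did not run with Tbx21 (r = 0.0095), and Eomes had r = 0.42 with it. Over all genes tested the patterns most like that of Ifng were those of Gm8817 (r = 0.93), Serpinb6b (0.92) and Ncald (0.91). For Tbx21 they were Smpdl3b (0.98), Fhl2 (0.97) and Ildr1 (0.96), and for Eomes Crtam (0.94), Samd3 (0.92) and Lpin1 (0.92). The nearest genes to Stat4 were Selplg (0.98), Rab8a (0.97) and Gpr171 (0.96) and those to Csf2 were Rap1gap2 (0.94), 5430427O19Rik (0.92) and Cxcr6 (0.90). Tnf and Il2 had no pattern as close, with Cdkl2 (0.88) and Slfn2 (0.89) in first place. These values of r describe 13 libraries of 5 groups and carry no test.

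Some of the receptors that feed the program rose after DTx. Of 10 genes for receptors and kinases upstream of the program, 4 were called higher and 0 lower in CD4 DTx against CD4 PBS. Of all genes, 5.06% were called higher and 1.79% lower. The median log2 fold change of the 10 was 1.31, beside -0.04 for all genes. The 4 were the interleukin-12 receptor subunits Il12rb1 (3.64, SE 0.52) and Il12rb2 (3.60, SE 0.55) and the interleukin-18 receptor subunits Il18r1 (2.24, SE 0.34) and Il18rap (3.53, SE 0.37). Il12rb2, the subunit that joins Il12rb1 on type 1 cells, had 527 and 255 normalized reads in CD4 PBS and 8049, 2646 and 4135 in CD4 DTx. In CD8 DTx against CD8 PBS, 3 of 10 rose, Il12rb1 (2.0, just past 4-fold, SE 0.52), Il12rb2 (4.05, SE 0.55) and Il18rap (2.69, SE 0.37), and 1 fell, with a median of 0.64. Of all genes, 3.87% rose and 1.59% fell. Il12rb2 had 912 and 229 in CD8 PBS and 9871, 6428 and 6944 in CD8 DTx. The kinases Jak1, Jak2 and Tyk2 were not called in either comparison, nor was the interleukin-27 receptor gene Il27ra, at -0.022 (SE 0.17) in CD4+ and -0.79 (SE 0.17, adjusted p = 0.0117 by limma) in CD8+ cells.

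The log2 fold changes of the interferon-gamma receptor chains after DTx had opposite signs, and only that of Ifngr2 in CD8+ cells was called. Ifngr1, the ligand-binding chain, had 13853 and 9673 normalized reads in CD4 PBS, 55849, 33771 and 42259 in CD4 DTx, 20807 and 11713 in CD8 PBS and 55011, 40486 and 39494 in CD8 DTx. Its log2 fold changes of 1.89 in CD4+ cells (SE 0.33, adjusted p = 0.00267 by limma) and 1.51 in CD8+ cells (SE 0.33, adjusted p = 0.0131) passed the p threshold but not 4-fold. Ifngr2, the signaling chain, had 645 and 1413 in CD8 PBS and 19.4, 47.2 and 12.1 in CD8 DTx. Ifngr2 fell by 5.35 on the log2 scale in CD8+ cells (SE 0.80, adjusted p = 0.00186 by limma). In CD4+ cells it had 1692 and 2499 in PBS and 110, 992 and 481 in DTx, a log2 fold change of -2.45 (SE 0.80, adjusted p = 0.0666) that was not called. Ifngr2 was also lower in CD8 DTx than in CD4 DTx (log2 fold change -4.0, SE 0.72, adjusted p = 0.0196 by limma without a block). Treg PBS had high Ifngr1 (78556, 47616 and 55024; 2.35 above CD4 PBS, SE 0.33, adjusted p = 4.63e-04) and low Ifngr2 (271, 318 and 526; log2 fold change -2.52, SE 0.80, adjusted p = 0.0434), and both differences were called.

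Treg cells carried the interleukin-12 receptor unevenly. Il12rb1 rose by 3.78 against CD4 PBS (SE 0.52, adjusted p = 3.91e-04 by limma), with 4419, 2804 and 3987 normalized reads against 481 and 147. Il12rb2 was at 995, 1051 and 1138, with a log2 fold change of 1.53 (SE 0.55, adjusted p = 0.0689 by limma). Of the 10 genes 2 were called higher and 1 lower in Treg PBS, beside 7.85% and 2.35% of all genes. CD4 DTx exceeded Treg PBS in Il12rb2 (2.07, SE 0.49, adjusted p = 0.0234 by limma) and Il18rap (2.62, SE 0.33, adjusted p = 6.49e-04) but not in Il12rb1 (-0.15, SE 0.47, 95% interval -1.16 to 0.87, adjusted p = 0.908).

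**Figure D4:**
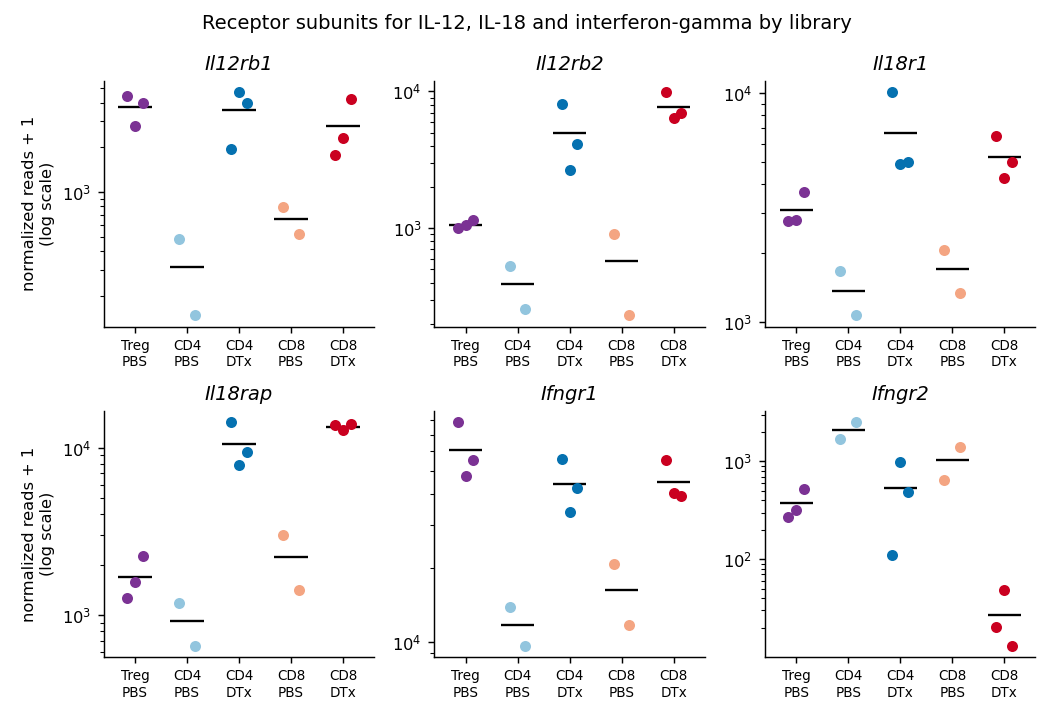
Normalized reads plus 1 on a log axis for 6 receptor subunits in each of the 13 libraries, by group, where a dot is a library and a bar is the group mean. The interleukin-12 and interleukin-18 receptor genes are high in the DTx groups, Il12rb1 is also high in Treg PBS (mean 3737), and Ifngr2 is lowest in CD8 DTx (mean 26.2).

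Among other transcription regulators of the program 7 of 9 listed genes were in the table and were tested. Of these, 2 rose in CD4+ and 3 in CD8+ cells after DTx, with 0 lower (medians 1.73 and 1.49). The shares of all genes that rose were 5.06% and 3.87%. Bhlhe40, known to support cytokine production in T cells, rose by 3.78 (SE 0.35, adjusted p = 8.08e-05 by limma) in CD4+ and 3.30 (SE 0.35, adjusted p = 4.32e-04) in CD8+ cells. Id2, an inhibitor of E proteins, rose by 2.84 (SE 0.36) and 2.7 (SE 0.36), and Zeb2, a repressor linked to terminal effector cells, rose by 4.29 (SE 1.03) in CD8+ cells. Zeb2 had 262 and 6.66 normalized reads in CD8 PBS and 530, 1037 and 1229 in CD8 DTx. The size of its fold change depends on the lower CD8 PBS library. Runx3 and Irf8 passed the p threshold in CD4+ cells below 4-fold (1.31 and 1.73). Irf1, a transcription factor induced by interferon-gamma, was not called, at -0.50 (SE 0.47) on the log2 scale in CD4+ cells and -0.46 in CD8+ cells. In Treg PBS against CD4 PBS 2 of 7 were called higher, Irf8 (3.99, SE 0.39) and Bhlhe40 (2.57, SE 0.35), beside 7.85% of all genes.

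The effector molecules of type 1 cells include chemokines, chemokine receptors and cytotoxic proteins. Of 13 genes, 9 rose in CD4+ cells (median log2 fold change 2.87) and 8 rose in CD8+ cells (median 2.61), and none fell. The shares of all genes that rose were 5.06% and 3.87%. Gzmb, the gene of granzyme B, had 547 and 131 normalized reads in CD4 PBS and 13630, 8324 and 10438 in CD4 DTx, a log2 fold change of 5.30 (SE 0.60, adjusted p = 1.88e-04 by limma). In CD8+ cells it rose by 5.18 (SE 0.60, adjusted p = 5.33e-04). The chemokine gene Ccl4 rose by 5.69 (SE 0.63) in CD4+ and 3.47 (SE 0.63) in CD8+ cells. Cxcr6, a receptor gene of resident T cells, rose by 4.16 (SE 0.47) and the granule gene Nkg7 by 4.11 (SE 0.49) in CD4+ cells, and Fasl, the gene of a death ligand, by 3.5 (SE 0.40) in CD8+ cells. Cxcr3, a chemokine receptor gene that T-bet is known to induce, rose by 2.87 (SE 0.48) and 2.36 (SE 0.48). The lymphotoxin genes Lta (0.01 and 0.58) and Ltb (-0.89 and -0.50), which lie beside Tnf in the genome, were not called in either cell type. Prf1, the gene of perforin, had log2 fold changes of -1.38 (SE 0.33) in CD4+ and 1.76 (SE 0.33) in CD8+ cells, which passed the p threshold below 4-fold, and the chemokine gene Xcl1 was not called (0.41 and 0.74). In Treg PBS 7 of the 13 were called higher than in CD4 PBS, beside 7.85% of all genes, with a median of 3.16. Among the 7 were Ccl4 (6.81, SE 0.63), Gzmb (6.15, SE 0.60) and the chemokine gene Ccl3 (4.89, SE 0.62).

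Genes that cells switch on in response to interferon-gamma did not reach the threshold for a call after DTx. Of 14 listed genes 12 were in the table, and 0 were called in either direction after DTx in CD4+ or CD8+ cells. Of all genes, 5.06% and 3.87% were called higher and 1.79% and 1.59% lower. By limma, 6 and 4 of the 12 had an unadjusted p under 0.05, beside 3333 and 3336 of all 12667 genes. The median log2 fold changes of the 12 were 1.15 and 0.38. In CD4+ cells the guanylate-binding protein genes Gbp2 (1.31, SE 0.22), Gbp3 (1.72, SE 0.23) and Gbp7 (1.32, SE 0.25), the GTPase genes Igtp (1.23, SE 0.36) and Iigp1 (1.46, SE 0.41) and the immunoproteasome gene Psmb8 (1.07, SE 0.31) passed the p threshold below 4-fold. In CD8+ cells Gbp3 (1.46, SE 0.23) and Gbp7 (1.12, SE 0.25) did so. Iigp1 was lower in CD8 DTx than in CD4 DTx (log2 fold change -2.49, SE 0.37, adjusted p = 0.00697 by limma without a block). It had 584, 352 and 485 normalized reads against 2505, 2847 and 2498. In Treg PBS against CD4 PBS 3 of the 12 were called higher, Gbp3 (2.81, SE 0.23), Iigp1 (2.60, SE 0.41) and Ciita, beside 7.85% of all genes. Ciita had 264, 211 and 141 normalized reads against 0 in both CD4 PBS libraries. Ciita, the master regulator of MHC class II genes, is also expressed by B cells and myeloid cells, whose marker sums in Treg PBS were 441 to 948 and 1229 to 4179, and their part in its level was not tested.

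**Figure D5:**
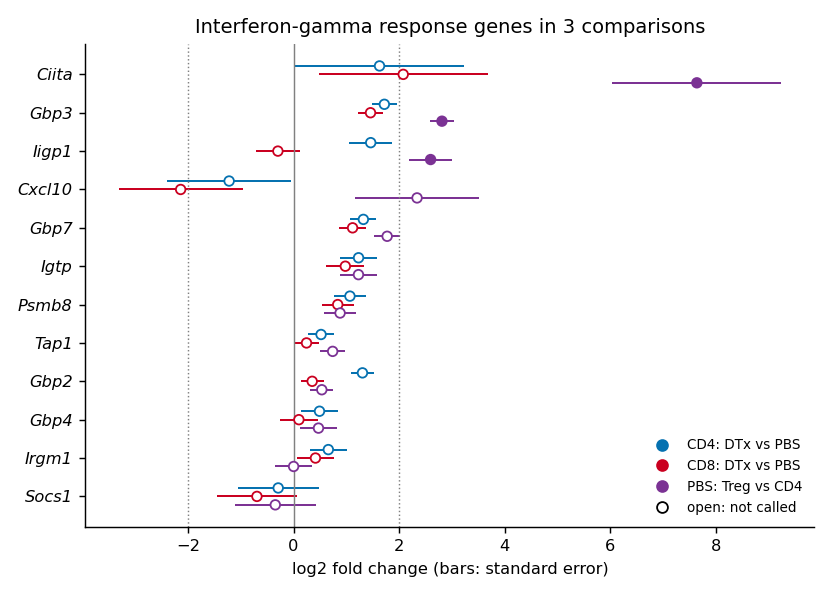
Log2 fold changes of 12 genes of the interferon-gamma response with standard errors for DTx against PBS in CD4+ and in CD8+ cells and for Treg PBS against CD4 PBS; filled symbols were called and dotted lines mark 4-fold. No gene was called after DTx, and Ciita, Gbp3 and Iigp1 were called in Treg cells.

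Genes of the type 2 program were also measured. Of 6 type 2 genes tested 4 rose in CD4 DTx, Il4, Il5, Il1rl1 (5.74, SE 0.47) and Gata3 (2.05, SE 0.41), with a median of 3.90. Of all genes, 5.06% rose. Il4 and Il5 encode the cytokines of T helper 2 cells, Gata3 their lineage factor and Il1rl1 the interleukin-33 receptor. Il4 had 1.37 and 0.661 normalized reads in CD4 PBS and 256, 718 and 442 in CD4 DTx, and Il5 had 8.20 and 0 against 738, 791 and 356. Il4ra, a receptor chain for interleukin-4, had a log2 fold change of -1.67 (SE 0.41, adjusted p = 0.0177 by limma) in CD4+ cells, below 4-fold, and Stat6, which transduces its signal, -0.34 (SE 0.28). In CD8+ cells 2 rose, Il1rl1 (8.19, SE 0.47) and Il4, and Il4ra fell by 2.24 (SE 0.41). Of all genes, 3.87% rose and 1.59% fell. Il1rl1 was at 0 in both CD8 PBS libraries and at 217, 320 and 353 in CD8 DTx, so its fold change depends on the pseudocount. Il4 was also at 0 in both CD8 PBS libraries and at 13.9, 40.4 and 16.2 in CD8 DTx. Of 4 type 17 genes tested, Rora rose in both cell types (2.30, SE 0.38, and 2.67, SE 0.38) and the others were not called. In bulk samples a larger share of cells with a transcript and more transcript per cell cannot be told apart, for these lists and for the 7 genes alike.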

How the data were processed

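RNA sequencing libraries of sorted intratumoral T cells (13 in 5 groups, by sample title) were analysed. Per the labels, RNA was extracted after fluorescence-activated sorting and libraries were made by SmartSeq2 and sequenced on a HiSeq, while the methods name a SMARTer low-input kit. Per the methods and the submitters' processing notes, reads passed FastQC and Cutadapt and were aligned with hisat2 to NCBIM37 (mm9). The counter, its strand setting and tool versions are not given in the sources used here, and reads of genes that overlap, on 1 strand or both, may be misassigned. The authors deposited a normalized signal per gene and library, called FPM, from uniquely mapped reads scaled by library size with a correction by intergenic reads. All values were whole multiples of 1 step per library within 0.01 read (100%), so whole reads were recovered, and a read was worth 0.661 to 1.37 units. Total recovered reads were 15947556 to 34140486, and 3 reads, a detection floor for counting error only, came to 1.98 to 4.10 units.

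Genes with at least 10 units in at least 2 libraries (12667) were fitted as log2(value + 1) by limma 3.58.1 with its mean trend (R 4.3.3). Every library entered, and each group had its own mean. A call needed a Benjamini-Hochberg adjusted p under 0.05 and more than 4-fold (|log2| above 2). Because 1 was added before the logarithm, fold changes of low genes depend on that constant. A library at 0 can make such a fold change larger than the ratio of the group means. Alternatives were edgeR 4.0.16 and DESeq2 1.42.0 on recovered reads, other pseudocounts, no filter, TMM scaling, the groups compared alone, a replicate block, sex, and fits without libraries, the filter being applied to the libraries in each fit. The fit was tested on simulated data. The study states that biological replicates were collected on separate days, but not that a number marks the same mice or day across groups. Same-numbered CD8 DTx and CD4 DTx libraries deviated together (3 pairs, r 0.207 to 0.590), so this comparison counts as paired, and its block left 0 of the 7 genes called. The effects printed for it, also those of listed genes, are from the fit without the block. The highest r was that of replicate 3, the male library of every group, and the part of sex in it was not tested. Same-numbered Treg PBS libraries had r from 0.0366 to 0.252 with CD4 DTx and from 0.00623 to 0.299 with CD8 DTx. Those comparisons are also given without a block. The 7 genes and the lists were chosen with earlier results of these data known. Named genes were the 7 in every comparison, up to 4 of each list by size among those called, others of a list that bear on the 7, and the 3 nearest patterns of each. Listed genes absent from the table were not analysed here, and some listed genes are counted but not reported here by name. Genes named below 4-fold or uncalled for contrast were chosen after their values were seen.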

Additional observations from a re-analysis of the deposited data

How the results depend on the processing

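The 11 called values of the 7 genes kept their direction in all 181 values of the alternatives and lost the call in 36, while of the 883 values of uncalled results 32 changed sign and 17 gained a call. Causes were not tested unless fewer libraries are the alternative itself. The fit without replicate 3 of every group, like those without marker-high libraries, was chosen after seeing the data. It lost the calls among the 7, with 1 library left in each PBS group of Tconv cells. An effect of replicate 3 cannot be told apart there from that of fewer libraries. Without 1 library at a time the number called ran from 2 to 3 in CD4 DTx against CD4 PBS, 0 to 2 in CD8 DTx against CD8 PBS, 0 to 2 in Treg PBS against CD4 PBS, 0 to 1 in CD8 PBS against CD4 PBS, 0 to 2 in CD4 DTx against Treg PBS and 2 to 3 in CD8 DTx against Treg PBS. CD8 DTx against CD8 PBS had 0 without CD8 PBS replicate 3, where 149 of all genes were called in place of 692, and 1 without the CD8 libraries highest in NK markers. Treg PBS against CD4 PBS had 1 by adjusted p alone. Pseudocount 10 and fits of the compared groups alone each gave 1 for CD8 PBS against CD4 PBS and for CD8 DTx against CD4 DTx. CD4 DTx against Treg PBS had 1 with edgeR, with pseudocount 0.25 and with the compared groups alone, and 0 without both CD4 DTx libraries highest in Cd8a. DESeq2 called 230 genes against 115 for CD8 PBS against CD4 PBS, 233 against 127 for CD8 DTx against CD4 DTx and 70 against 6 for the difference of DTx effects; edgeR called 79, 76 and 4, and 323 against 508 for CD4 DTx against Treg PBS.

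With a replicate block CD4 DTx against CD4 PBS had 2 of the 7 (878 genes against 868), Ifng then lying at 1.79 (adjusted p = 0.0148 by limma), below 4-fold. The block gave 2 in CD8 DTx against CD8 PBS (756 genes) and 3 in CD4 DTx against Treg PBS (648 genes against 508), and changed no other count of the 7. Same-numbered deviations had r from -0.311 to -0.210 for CD4 DTx and CD4 PBS and from -0.00609 to 0.0839 for CD8 DTx and CD8 PBS, so those numbers were not taken to pair samples.

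Uncalled log2 fold changes that changed sign are given as ranges over the fits without 1 library. For Tnf they ran from -0.12 to 0.57 (CD4 DTx against CD4 PBS), -0.43 to 0.24 (Treg PBS against CD4 PBS; 0.0036 with sex as a covariate), -0.62 to 0.30 (CD8 DTx against CD4 DTx; 0.30 without the NK-high libraries), -0.027 to 0.63 (CD4 DTx against Treg PBS), -0.28 to 0.63 (CD8 DTx against Treg PBS), -1.30 to 0.044 (CD8 PBS against Treg PBS; 0.044 without the NK-high libraries) and -1.15 to 0.20 (difference of DTx effects; 0.25 without the Cd8a-high libraries). For Il2 they ran from -0.035 to 2.02 (CD8 DTx against CD8 PBS) and -0.83 to 1.23 (difference of DTx effects; -0.91 without the NK-high libraries and -0.19 without replicate 3). The others were Ifng in CD8 PBS against Treg PBS (-0.052 to 0.82), Tbx21 in the same comparison (-0.69 to 0.28; 0.34 without replicate 3), Eomes in CD8 DTx against CD8 PBS (-0.042 to 0.75), Stat4 in CD8 DTx against CD4 DTx (-0.024 to 0.55; -0.41 without the Cd8a-high and -0.024 without the NK-high libraries) and Csf2 in Treg PBS against CD4 PBS (-0.50 to 4.02; -0.83 without replicate 3). Low counts limit Il2, Csf2 and Eomes most, with libraries at 0 to 2 reads. The library at 0 for Csf2, CD4 PBS replicate 3, held 34140486 reads in total. The library at 0 for Eomes, Treg PBS replicate 1, held 29242251.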
